A study of Mus musculus with 6 samples.

Results

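The genes described here are imprinted genes of the mouse, arranged by their genomic cluster and by the parental copy from which each is known to be transcribed. The list held 47 genes, and 40 of them had a row of their own on the arrays, out of 19938 genes measured. A row counted only where the platform annotation gave it exactly 1 gene symbol, and each of the 40 had 1 such row. Mirg, Snrpn, Ube3a and Gnas lay on rows shared with other genes, and H19, Kcnq1ot1 and Zrsr1 were not analysed here. By textbook knowledge, 22 of the 40 are transcribed from the paternal copy and 16 from the maternal copy, some of them only in certain tissues. Grb10 is maternal in most tissues and paternal in neurons, and Casd1 was given no allele.

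Imprinted genes are transcribed mainly from 1 parental copy. For many of them, that copy is set by DNA methylation laid down at control regions in the egg or in the sperm. Imprinted genes often lie in clusters in which protein-coding genes of either parental expression sit beside long noncoding RNAs. Many act on growth of the fetus and placenta or on the brain, and the doses of paternally and maternally expressed genes often oppose each other in growth. The array values add up both parental copies, so they give the amount of RNA and say nothing of the allele it came from.

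The cells were mouse embryonic stem (ES) cells of the W4/129S6 background with a green fluorescent protein reporter knocked into Nkx2-1, a homeobox gene of lung, thyroid and ventral forebrain. They were differentiated for 14 days and sorted into GFP-positive cells (Nkx2-1 high, 3 samples) and GFP-negative cells (Nkx2-1 low, 3 samples), and both fractions carry the reporter allele. The comparison asks how the sorted positive cells, sought as progenitors of lung and thyroid, differed from the negative cells. The labels call the samples biological replicates. They do not say whether these were separate cultures, so p-values measure only the spread between these samples.

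Values are log2 expression deposited after RMA (robust multi-array average, which removes background and equalises arrays), with array medians from 4.98 to 5.06. A log2 value of 4.30, the 95th percentile of 1210 rows of olfactory and vomeronasal receptors, served as the background level. Nkx2-1 itself, by which the cells were sorted, was 5.25-fold higher in Nkx2-1 high (log2 difference 2.39 ± 0.08, standard error, SE). Of 12 neuronal markers 7 fell and 0 rose, and of 12 mesenchyme markers 7 fell and 0 rose (58.3% each). Of all genes tested 3.09% fell and 2.9% rose. The marker lists were chosen with earlier results of these data known. All 12 neuronal markers were on the lower side. Of those that fell, Dcx, Stmn2, Elavl4 and Nefl were above background in Nkx2-1 low only. Of the mesenchyme markers 4, Pdgfrb, Twist2, Vim and Dcn, were on the higher side without passing (log2 differences from 0.04 to 0.16). The summed linear level of the neuronal markers ran from 348 to 465 in Nkx2-1 high and from 659 to 683 in Nkx2-1 low, and that of the mesenchyme markers from 5279 to 6381 and from 8210 to 9603. Of 9 lung and thyroid markers 3 rose (33.3%), namely Hhex, Pax8 and Nkx2-1, whose rise was set by the sorting. Tg, Tshr, Sftpc and Scgb1a1 were not above background in either fraction. Neither were the 5 pluripotency markers nor the 3 measured extra-embryonic markers. Of 8 markers of endoderm and epithelium 1, Epcam, fell (12.5%), and Sox17 was not above background. Of 4 endothelial markers 1, Tek, rose (1.87-fold, limma adjusted p = 0.000999), Cdh5 was not above background, and the summed level ran from 102 to 113 in Nkx2-1 high and from 86 to 92 in Nkx2-1 low. In sorted bulk samples, fewer cells of a type and less RNA per cell cannot be told apart.

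Of the 40 imprinted genes 5 changed between the fractions, and 35 did not pass the test. Sfmbt2 and Grb10 rose in Nkx2-1 high, and Asb4, Peg10 and Dlk1 fell. A change means an adjusted p under 0.05 from limma, fitted over all 19938 genes with Benjamini-Hochberg adjustment. The 5 of 40 are 12.5%, beside 6.0% of all genes tested. Among genes above background in at least 1 fraction, the share was 15.2% of the imprinted genes and 8.4% of all genes. The list was chosen with earlier results of these data known, so these shares are a description only. Of the 40, 33 were above background in at least 1 fraction (82.5%, beside 67.2% of all genes). The median log2 difference was 0.03 over the 40 and -0.01 over all genes, and the median of the absolute differences was 0.13 and 0.10. The fractions did not overlap for 12 of the 40 genes, 30.0%, beside 24.7% of all genes. Among genes above background these shares were 36.4% and 31.3%.

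**Figure D1:**
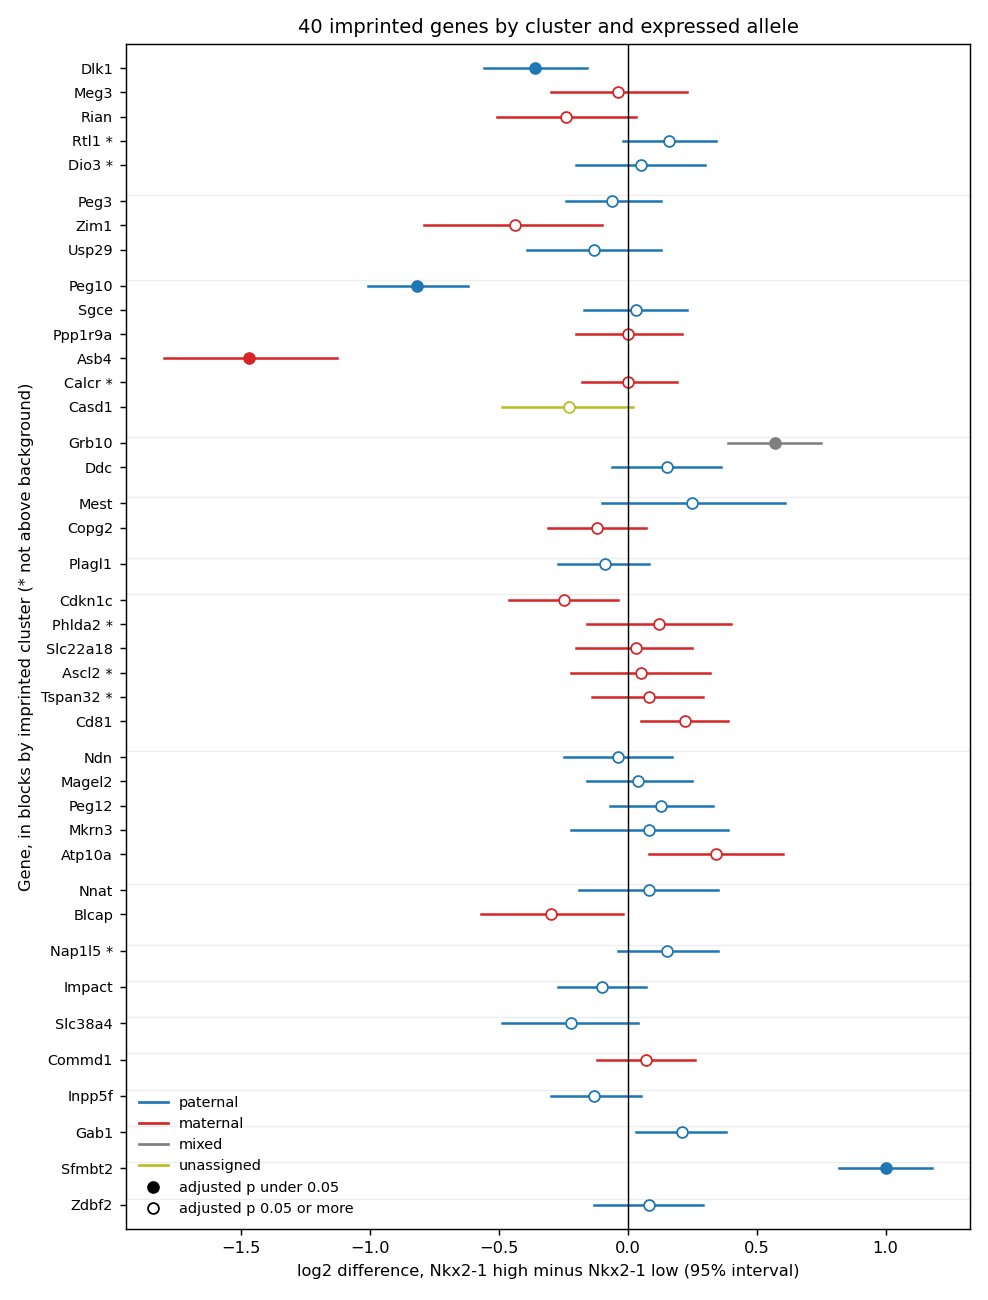
Log2 difference between Nkx2-1 high and Nkx2-1 low (x axis) for each of the 40 measured imprinted genes (y axis), in blocks by cluster, with 95% intervals from limma as lines and colour for the parental copy expressed. Filled points passed the test: Asb4 (-1.47), Peg10 (-0.82) and Dlk1 (-0.36) on the left, Grb10 (0.57) and Sfmbt2 (1.00) on the right.

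Both directions occurred among the paternally expressed genes. Of the 22 paternally expressed genes 1 rose (Sfmbt2) and 2 fell (Peg10 and Dlk1), with a median log2 difference of 0.05, which was -0.01 without Nkx2-1 high replicate 3. Of the 16 maternally expressed genes 0 rose and 1 fell (Asb4), with a median of 0.00. Over the genes above background the median was 0.03 for 19 paternal and -0.08 for 12 maternal genes. With p left unadjusted, 2 paternal genes on the higher side and 2 on the lower were under 0.05, and 2 and 4 maternal genes, beside 8.57% of all genes on the higher side and 10.4% on the lower. After adjustment 2.9% of all genes tested rose and 3.09% fell. Imprinting limited to certain tissues, or noted only as preferential, applied to 9 maternal and 5 paternal genes, with Grb10 not counted. Of the 9 maternal genes 0 changed, and of the 5 paternal genes 1, Sfmbt2 (20.0%), beside 6.0% of all genes. The median log2 difference was 0.05 for those 9 maternal genes and -0.24 for the other 7. It was 0.15 for those 5 paternal genes and 0.03 for the other 17.

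The largest falls were in the cluster around Peg10 and Sgce, a pair of paternally expressed genes whose transcripts start next to each other and run in opposite directions. Asb4, a maternally expressed gene of a ubiquitin ligase adaptor with ankyrin repeats, stood at log2 values of 5.48, 5.52 and 6.10 in Nkx2-1 high and of 7.20, 7.06 and 7.24 in Nkx2-1 low. All Nkx2-1 high samples lay below all Nkx2-1 low samples, and Nkx2-1 high replicate 3 stood apart from the other 2 of its group. Asb4 was 2.76-fold lower in the positive cells (difference in log2 -1.47 ± 0.15 SE, limma adjusted p = 0.00053). An exact two-sided permutation test over samples gave p = 0.1 for Asb4, the smallest that 3 samples against 3 allow, and the same for each of the other 4 genes that changed.

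Peg10, a gene derived from a retrotransposon and needed for the placenta, stood at 9.52, 9.43 and 9.36 in Nkx2-1 high and at 10.13, 10.31 and 10.33 in Nkx2-1 low on the log2 scale. The groups did not overlap, and the spread within each was small, with an SD of 0.08 and 0.11. Peg10 was 1.76-fold lower (-0.82 ± 0.09 SE, limma adjusted p = 0.000609).

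Sgce, the gene of epsilon-sarcoglycan, which shares its control region with Peg10, did not pass the test. Its log2 values were 7.62, 7.63 and 7.67 in Nkx2-1 high and 7.78, 7.48 and 7.58 in Nkx2-1 low. The Nkx2-1 high values lay inside the range of the Nkx2-1 low values, and the 95% interval of the difference ran from -0.17 to 0.23. The log2 ratio of Peg10 to Sgce within each array was 2.64 ± 0.25 in Nkx2-1 low and 1.80 ± 0.11 in Nkx2-1 high (each SD, n = 3), a difference of -0.85 with no overlap. The exact permutation p of this difference was 0.1, the smallest possible, and 0.12 after adjustment over the 6 pairs of neighbouring genes compared, which were chosen after the values were seen.

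Between Peg10 and Asb4 lies Ppp1r9a, the gene of the actin-binding protein neurabin, which is maternally expressed in some tissues. It stood at 6.58 ± 0.11 in Nkx2-1 low and 6.59 ± 0.11 in Nkx2-1 high (each SD, n = 3), with a 95% interval of the difference from -0.20 to 0.21. The within-array log2 ratio of Asb4 to Ppp1r9a differed by -1.47 between the fractions (exact permutation p = 0.1, adjusted p = 0.12 over the 6 pairs). Because Ppp1r9a hardly differed, this ratio restates the difference of Asb4. Casd1, the gene of an enzyme that acetylates sialic acids, differed by -0.23 ± 0.11 SE (limma adjusted p = 0.302). Calcr, the calcitonin receptor gene, was not above background. The 7 neuronal and 7 mesenchyme markers that fell did so in the same samples as Asb4 and Peg10. Their part in the falls of Asb4 and Peg10 was not tested.

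**Figure D2:**
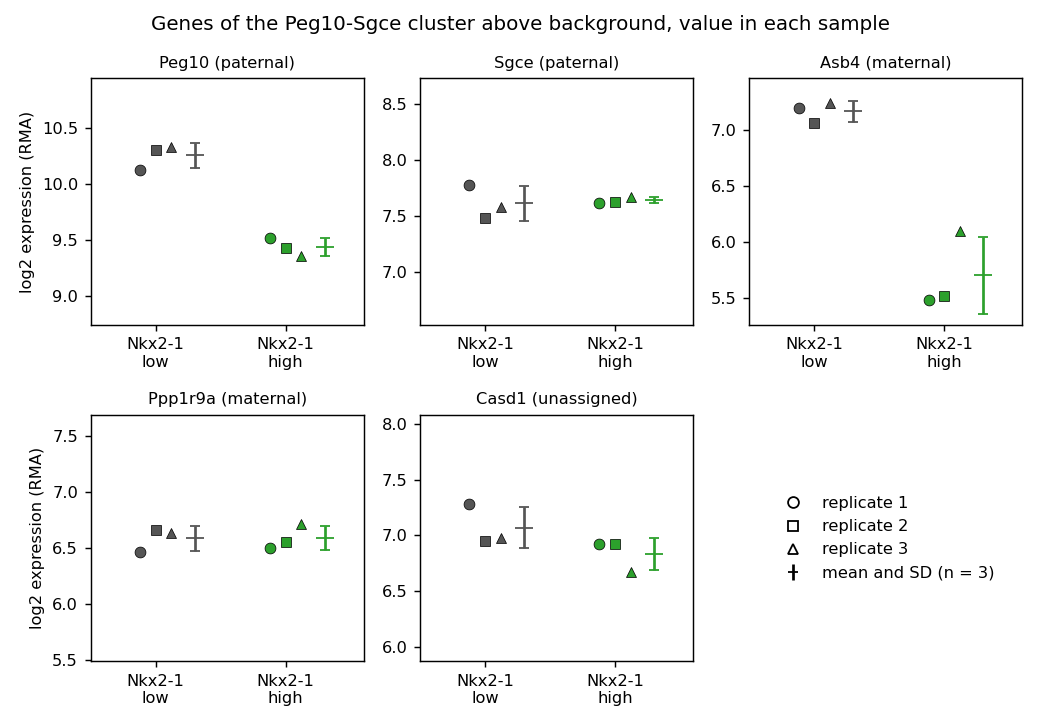
Log2 expression (y axis, RMA) of the 5 genes of the Peg10-Sgce cluster above background in each sample of Nkx2-1 low and Nkx2-1 high (x axis), each panel spanning the same 2.2 log2 units, with mean and SD (n = 3). The fractions lie apart for Peg10 and Asb4, do not quite meet for Casd1, and overlap for Sgce and Ppp1r9a.

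The largest rise was that of Sfmbt2, the gene of a Polycomb-group protein, which is paternally expressed in the early embryo and the placenta. Its log2 values were 6.11, 6.06 and 6.09 in Nkx2-1 high and 5.02, 5.21 and 5.02 in Nkx2-1 low. The Nkx2-1 high samples lay close together and far above all Nkx2-1 low samples. Sfmbt2 was 2.0-fold higher (1.00 ± 0.08 SE, limma adjusted p = 0.000138). The extra-embryonic markers Cdx2, Elf5 and Tpbpa were not above background in either fraction.

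Grb10, the gene of an adaptor that restrains signalling by the insulin and IGF1 receptors, stood at 11.04, 11.02 and 10.86 in Nkx2-1 high and at 10.42, 10.35 and 10.44 in Nkx2-1 low on the log2 scale. All Nkx2-1 high samples were above all Nkx2-1 low samples. The gene was 1.49-fold higher (0.57 ± 0.08 SE, limma adjusted p = 0.00321). Its neighbour Ddc, the gene of dopa decarboxylase with a paternally expressed transcript in the heart, differed by 0.15 ± 0.09 SE and did not pass (limma adjusted p = 0.46). The within-array log2 ratio of Grb10 to Ddc was higher by 0.42 in Nkx2-1 high (exact permutation p = 0.1, adjusted p = 0.12 over the 6 pairs). The endothelial marker Tek and the lung and thyroid markers Hhex and Pax8 rose in the same samples as Sfmbt2 and Grb10. Of the markers above background in those lists, Pecam1 (0.33), Foxe1 (0.16), Sftpb (0.18) and Kdr (-0.08) did not pass. The part of Tek, Hhex and Pax8 in the rises of Sfmbt2 and Grb10 was not tested.

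**Figure D3:**
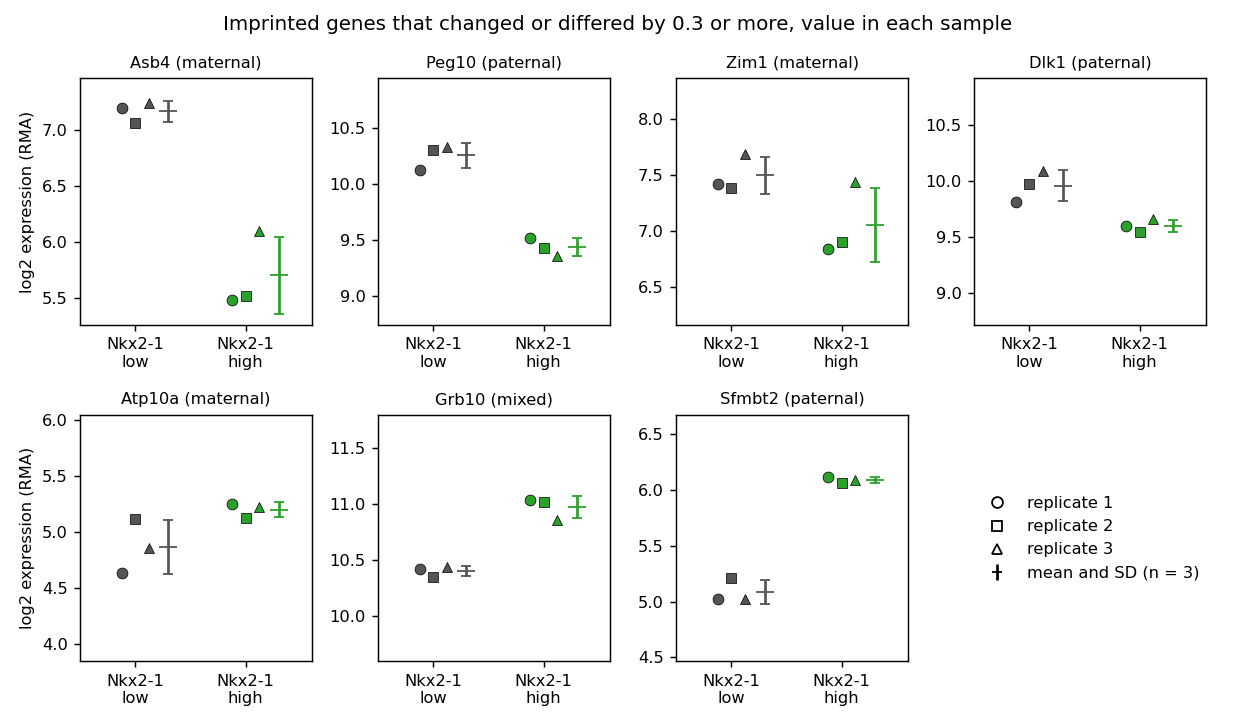
Log2 expression (y axis, RMA) in each sample of Nkx2-1 low and Nkx2-1 high (x axis) for the 5 imprinted genes that changed and for Zim1 and Atp10a, which differed by 0.3 or more without passing, each panel spanning the same 2.2 log2 units, with mean and SD (n = 3). Nkx2-1 high replicate 3 (triangle) stands above the other 2 of its group for Asb4 and Zim1.

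Promoters of the 4 changed genes with an entry in the RefSeq table of GRCm38.p6 are printed to show how unlike their start regions are, with each CG, the site of DNA methylation, in capitals. Each sequence runs 5′ to 3′ on the gene's strand, from 250 bases before to 50 bases after the first start listed for that gene.
Sfmbt2, chr2:10370201-10370500, plus strand: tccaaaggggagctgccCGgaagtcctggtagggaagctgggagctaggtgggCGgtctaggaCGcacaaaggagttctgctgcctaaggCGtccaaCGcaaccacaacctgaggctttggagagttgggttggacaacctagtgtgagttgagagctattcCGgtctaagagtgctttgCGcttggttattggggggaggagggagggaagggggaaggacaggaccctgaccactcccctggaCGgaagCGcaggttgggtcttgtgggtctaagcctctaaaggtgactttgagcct
Grb10, chr11:12037371-12037670, minus strand: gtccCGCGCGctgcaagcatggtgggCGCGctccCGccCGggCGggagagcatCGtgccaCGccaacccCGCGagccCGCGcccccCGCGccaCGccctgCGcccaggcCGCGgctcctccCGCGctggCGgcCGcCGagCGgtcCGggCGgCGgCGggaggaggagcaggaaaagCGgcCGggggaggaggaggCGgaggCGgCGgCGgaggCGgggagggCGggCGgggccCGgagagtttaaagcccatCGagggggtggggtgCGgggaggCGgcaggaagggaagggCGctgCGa
Asb4, chr6:5383136-5383435, plus strand: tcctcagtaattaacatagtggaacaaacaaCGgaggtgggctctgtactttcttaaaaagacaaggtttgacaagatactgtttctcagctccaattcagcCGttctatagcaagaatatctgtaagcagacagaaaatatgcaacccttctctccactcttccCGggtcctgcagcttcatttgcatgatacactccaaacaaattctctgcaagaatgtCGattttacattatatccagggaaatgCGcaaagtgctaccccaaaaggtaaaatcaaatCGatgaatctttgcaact
Dlk1, chr12:109452573-109452872, plus strand: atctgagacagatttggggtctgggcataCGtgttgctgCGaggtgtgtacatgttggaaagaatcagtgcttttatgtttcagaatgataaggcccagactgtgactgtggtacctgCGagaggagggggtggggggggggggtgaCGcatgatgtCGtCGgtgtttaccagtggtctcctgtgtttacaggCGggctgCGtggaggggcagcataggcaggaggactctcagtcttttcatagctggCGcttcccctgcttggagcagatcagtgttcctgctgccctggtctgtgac
Grb10 held 45 CG in its 300 bases, Sfmbt2 and Dlk1 9 each, and Asb4 6. The Grb10 and Sfmbt2 windows, whose genes rose, thus differ widely in CG, and so do those of Grb10 and Asb4, which moved in opposite directions. Over the 50 promoter entries of 35 measured imprinted genes the median was 15 CG, and over all 32851 entries it was 7. The hexamer TGCCGC, bound by the imprint-keeping factor ZFP57, was searched on both strands. It was present in 13 of the 50 entries (26.0%) and in 11.6% of all entries, and of the 4 printed windows Grb10 held it 1 time and the others 0 times. The letters CAAGTG, a core that NKX2-1 and related factors bind, were present on either strand in 6 of the 50 entries and in 13.6% of all entries, and in 0 of the 4 printed windows. These matches describe letters in short windows only, and TGCCGC itself contains a CG.

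In the cluster between Dlk1 and Dio3, the paternally expressed Dlk1 fell while its maternally expressed neighbour Meg3 did not pass the test. Dlk1, the gene of a membrane protein related to Notch ligands that holds back differentiation of precursor cells, stood at 9.60, 9.55 and 9.66 in Nkx2-1 high and at 9.82, 9.98 and 10.09 in Nkx2-1 low on the log2 scale. All Nkx2-1 high samples lay below all Nkx2-1 low samples. Dlk1 was 1.28-fold lower (-0.36 ± 0.09 SE, limma adjusted p = 0.0454). The call is the weakest of the 5: it was kept without Nkx2-1 low replicate 1 and lost in the other 5 fits that left out 1 sample, with a limma adjusted p between 0.0645 and 0.166, and after cyclic loess (0.107). The 7 neuronal and 7 mesenchyme markers that fell moved with Dlk1 too, and their part in its fall was not tested.

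Meg3, a long noncoding RNA, stood at 9.27, 9.33 and 9.68 in Nkx2-1 high and at 9.32, 9.51 and 9.56 in Nkx2-1 low on the log2 scale. The groups overlapped, and the 95% interval of the difference ran from -0.30 to 0.23. The within-array log2 ratio of Dlk1 to Meg3 was 0.50 ± 0.03 in Nkx2-1 low and 0.18 ± 0.18 in Nkx2-1 high (each SD, n = 3), at an exact permutation p of 0.1 and an adjusted p of 0.12 over the 6 pairs. Rian, a noncoding RNA that hosts small nucleolar RNAs, differed by -0.24 ± 0.12 SE (limma adjusted p = 0.336). Dio3, which encodes the deiodinase that inactivates thyroid hormone, and Rtl1, derived from a retrotransposon, were not above background.

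Rtl1 is crossed on the opposite strand by a maternally expressed transcript that carries microRNAs, which are therefore fully complementary to the Rtl1 transcript. The arrays held 8 of the 15 microRNA hairpins that lie inside Rtl1 in GRCm38.p6. Mature forms from 4 of them, from RefSeq with positions in that build on the plus strand, show that their seeds (bases 2 to 8, in capitals) differ from each other.
mmu-miR-127-3p, chr12:109592888-109592909: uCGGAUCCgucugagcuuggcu
mmu-miR-136-5p, chr12:109595331-109595352: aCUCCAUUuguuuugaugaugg
mmu-miR-431-5p, chr12:109590459-109590479: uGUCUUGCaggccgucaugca
mmu-miR-434-3p, chr12:109594565-109594586: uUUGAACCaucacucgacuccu
None of the 8 hairpin rows passed limma's test, and their log2 differences ran from -0.14 to 0.12. Mir127 stood at 5.27 ± 0.04 in Nkx2-1 low and 5.29 ± 0.09 in Nkx2-1 high (each SD, n = 3), Mir431 at 5.84 ± 0.05 and 5.71 ± 0.07, and Mir136 and Mir434 were not above background. Of 43 measured small RNA genes of imprinted clusters, 24 were above background, and limma called none. With p left unadjusted, 3 lower and 0 higher ones were under 0.05 (6.98% and 0%), beside 10.4% and 8.57% of all genes. Of the 24 above background, 1 lower and 0 higher ones were (4.17% and 0%), beside 13.3% and 10.7% of all genes above background. The median log2 difference of the 43 was -0.04. These rows give no separate measure of the mature microRNA.

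In the Peg3 cluster none of the 3 measured genes passed limma's test. With p left unadjusted 1 lower gene was under 0.05 (33.3%, beside 10.4% of all genes on the lower side). The maternally expressed gene of the cluster had the largest difference. Zim1, a zinc finger gene, stood at 6.84, 6.90 and 7.44 in Nkx2-1 high and at 7.42, 7.39 and 7.69 in Nkx2-1 low on the log2 scale. Nkx2-1 high replicate 3 lay among the Nkx2-1 low values, so the groups overlapped. The difference was -0.44 ± 0.15 SE (limma adjusted p = 0.148), and without Nkx2-1 high replicate 3 it was -0.63 with an adjusted p of 0.0122. Peg3, the paternally expressed zinc finger gene beside it, stood at 10.20 ± 0.07 in Nkx2-1 low and 10.15 ± 0.10 in Nkx2-1 high (each SD, n = 3), with a 95% interval of the difference from -0.24 to 0.13. The within-array log2 ratio of Zim1 to Peg3 differed by -0.39 with no overlap (exact permutation p = 0.1, adjusted p = 0.12 over the 6 pairs). Usp29, the gene of a ubiquitin protease, lay next to the background level, with log2 values of 4.43 in Nkx2-1 low and 4.31 in Nkx2-1 high.

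None of the 5 measured genes around Snrpn, the cluster of Prader-Willi and Angelman syndromes, passed limma's test. With p left unadjusted 1 higher gene (20.0%) and 0 lower genes were under 0.05, beside 8.57% and 10.4% of all genes tested. The paternally expressed Ndn and Magel2, genes of the MAGE family that neurons express strongly, stood at 8.09 ± 0.11 and 5.31 ± 0.14 (SD, n = 3) in Nkx2-1 high and at 8.13 ± 0.12 and 5.27 ± 0.07 (SD, n = 3) in Nkx2-1 low. Their 95% intervals ran from -0.25 to 0.17 and from -0.16 to 0.25. In the same samples 7 of 12 neuronal markers fell, and how Ndn and Magel2 relate to them was not tested. Peg12, a gene related to Frat regulators of Wnt signalling, differed by 0.13 ± 0.09 SE, and Mkrn3, a makorin gene, by 0.08 ± 0.14 SE next to the background level. Atp10a, the gene of a phospholipid flippase whose maternal expression in the brain is disputed, stood at 5.25, 5.12 and 5.22 in Nkx2-1 high and at 4.63, 5.11 and 4.85 in Nkx2-1 low. The groups just missed each other, at 5.12 and 5.11, and the difference of 0.34 ± 0.12 SE did not pass (limma adjusted p = 0.143). Without Nkx2-1 low replicate 2 it was 0.46, with an adjusted p of 0.0473.

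In the cluster controlled by the noncoding RNA Kcnq1ot1, none of the 6 measured genes passed limma's test. With p left unadjusted 1 higher gene and 1 lower gene were under 0.05 (16.7% each), beside 8.57% and 10.4% of all genes tested. Cdkn1c, a maternally expressed inhibitor of cyclin-dependent kinases, stood at 9.21, 9.08 and 9.26 in Nkx2-1 high and at 9.35, 9.36 and 9.59 in Nkx2-1 low on the log2 scale. The groups did not overlap, but the difference of -0.25 ± 0.09 SE did not pass (limma adjusted p = 0.183). Cd81, a tetraspanin gene that is imprinted in the placenta, differed the other way, by 0.22 ± 0.08 SE (limma adjusted p = 0.143). The transporter gene Slc22a18 had log2 values of 4.52 in Nkx2-1 low and 4.54 in Nkx2-1 high. The placental genes Phlda2, Ascl2 and Tspan32 were not above background.

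Limma called none of the remaining genes, and with p left unadjusted 1 higher gene (Gab1) and 1 lower gene (Blcap) were under 0.05. Of all genes tested, 8.57% on the higher side and 10.4% on the lower were under it. Plagl1, a zinc finger transcription factor gene, differed by -0.09 ± 0.08 SE, and Impact, an inhibitor of the stress kinase GCN2, by -0.10 ± 0.08 SE. Mest, a hydrolase gene, stood at 5.75, 5.35 and 4.99 in Nkx2-1 high and at 5.05, 5.20 and 5.08 in Nkx2-1 low. The Nkx2-1 high samples spread widely and reached below the Nkx2-1 low ones, and the 95% interval of the difference ran from -0.10 to 0.61. Copg2, a vesicle coat gene that overlaps Mest, differed by -0.12 ± 0.08 SE.

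Nnat, the gene of the membrane proteolipid neuronatin, which lies inside an intron of Blcap, differed by 0.08 ± 0.12 SE, and Blcap by -0.30 ± 0.12 SE (limma adjusted p = 0.222). Blcap stood at 6.50, 6.54 and 6.76 in Nkx2-1 high and at 6.65, 6.94 and 7.09 in Nkx2-1 low, so that the groups overlapped. The amino acid transporter gene Slc38a4 differed by -0.22 ± 0.12 SE, the signalling adaptor gene Gab1 by 0.21 ± 0.08 SE, the phosphoinositide phosphatase gene Inpp5f by -0.13 ± 0.08 SE, the zinc finger gene Zdbf2 by 0.08 ± 0.09 SE and the copper-handling gene Commd1 by 0.07 ± 0.08 SE. Nap1l5, related to nucleosome assembly proteins, was not above background. Over all 35 genes that did not pass, log2 differences ran from -0.44 to 0.34, with a median absolute difference of 0.12.

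**Figure D4:**
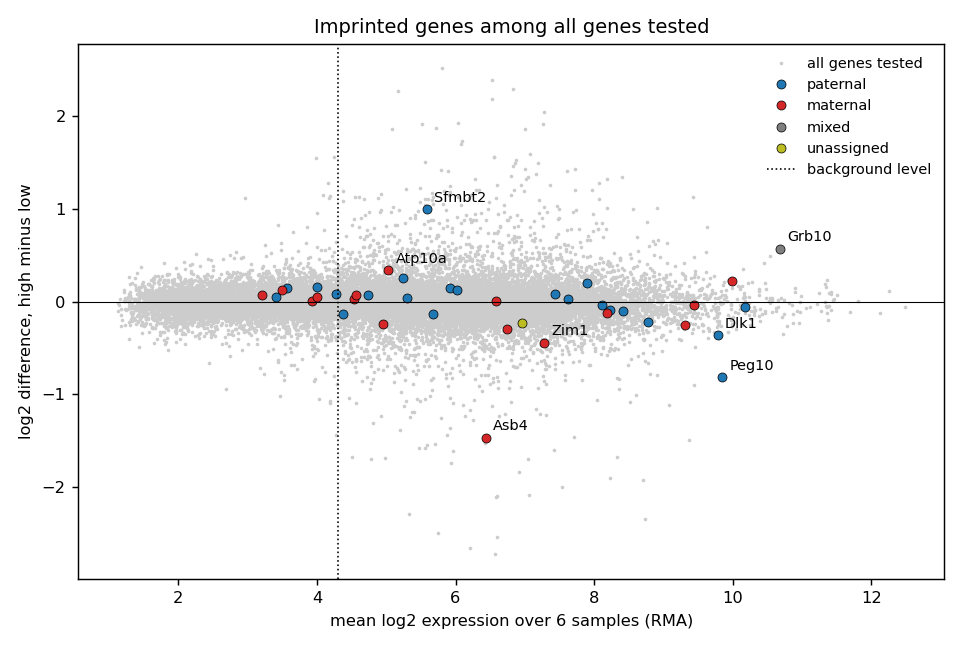
Log2 difference between the fractions (y axis) against mean log2 expression over the 6 samples (x axis) for all 19938 genes (grey) and the 40 imprinted genes (coloured by parental copy), with the background level of 4.30 as a dotted line. Sfmbt2, Grb10, Asb4 and Peg10 stand off the band near 0 in which most imprinted genes lie.

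Imprinted genes outside the 40 also moved both ways. Of 34 measured genes of a further list, 2 rose and 3 fell, 14.7% beside 6.0% of all genes, and the median log2 difference was -0.03. This list was chosen with earlier results of these data known, so its share is a description only. Ano1, a chloride channel gene imprinted in the placenta, rose by 0.89 ± 0.14 SE (limma adjusted p = 0.00548). Airn, the paternally expressed noncoding RNA that silences Igf2r in cis, rose by 0.56 ± 0.12 SE (limma adjusted p = 0.0265). It kept the call without Nkx2-1 high replicate 3 and lost it in the other 5 fits that left out 1 sample (adjusted p up to 0.0955). Igf2r, the maternally expressed receptor gene that clears IGF2, differed in the same direction, by 0.36 ± 0.13 SE (limma adjusted p = 0.157). The within-array log2 ratio of Airn to Igf2r differed by 0.21, and it was the only one of the 6 pairs whose groups overlapped (exact permutation p = 0.2, adjusted p = 0.2). The 2 genes overlap on opposite strands, and how the labelling treated strand is not given in the sources used here. Igf2, the paternally expressed growth factor gene, stood at 11.07 ± 0.12 in Nkx2-1 low and 10.84 ± 0.07 in Nkx2-1 high (each SD, n = 3) and did not pass (limma adjusted p = 0.196).

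The 3 that fell were Dlx5 (-0.93 ± 0.10 SE, limma adjusted p = 0.000822), a homeobox gene near Asb4 whose imprinting is disputed, Pde4d (-0.64 ± 0.09 SE, limma adjusted p = 0.00407), a cyclic AMP phosphodiesterase gene, and Dhcr7 (-0.44 ± 0.09 SE, limma adjusted p = 0.0189), a gene of cholesterol synthesis. The Pde4d call rests on the row with the highest mean: with the mean over the rows of the gene the difference was -0.24 (limma adjusted p = 0.121) and did not pass. Dhcr7 lost the call without Nkx2-1 high replicate 1 or 2 and without Nkx2-1 low replicate 2 or 3 (adjusted p up to 0.0778). The 7 neuronal and 7 mesenchyme markers that fell moved with these 3 genes, and their part was not tested. The count of changed genes in this list was 3 in each of those 4 fits.

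Among 23 factors that keep or erase imprints 3 fell and 0 rose, beside 6.0% of all genes in either direction, and with p left unadjusted 7 lower and 5 higher factors were under 0.05, 30.4% and 21.7% beside 10.4% and 8.57% of all genes. The 23, also chosen with earlier results of these data known, had a median log2 difference of -0.13. Hells, a chromatin remodeller needed for DNA methylation, fell by 0.63 ± 0.15 SE on the log2 scale (limma adjusted p = 0.039). Uhrf1, which brings the maintenance methyltransferase to replicating DNA, fell by 0.36 ± 0.08 (limma adjusted p = 0.0241), and Dnmt1, that methyltransferase, by 0.30 ± 0.07 (limma adjusted p = 0.0402). Dnmt1 stood at 8.47, 8.54 and 8.45 in Nkx2-1 high and at 8.81, 8.80 and 8.76 in Nkx2-1 low. The Dnmt1 groups did not overlap, yet its call was lost in all 6 fits that left out 1 sample (adjusted p up to 0.125), and after cyclic loess (0.0544), median centring (0.0516) or a replicate block (0.0506). Hells lost its call with array weights (-0.49, adjusted p = 0.0506). Of the 6 fits that left out 1 sample, Uhrf1 kept its call only in the one without Nkx2-1 high replicate 3 and Hells only in the one without Nkx2-1 high replicate 2, and the count was 0 without Nkx2-1 high replicate 1 and without each of the Nkx2-1 low replicates.

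Zfp57 and Zfp445, the zinc finger factors that protect imprints, differed by -0.20 ± 0.07 and -0.21 ± 0.07 SE (limma adjusted p = 0.171 and 0.15), and Trim28, their shared corepressor, by -0.13 ± 0.07 SE (limma adjusted p = 0.395). The de novo methyltransferase gene Dnmt3a had log2 values of 8.40 in Nkx2-1 low and 8.42 in Nkx2-1 high, and Dnmt3l was not above background. Tet1, Tet2 and Tet3, genes of enzymes that oxidise methylcytosine, differed by 0.18 ± 0.08, 0.26 ± 0.11 and 0.23 ± 0.07 SE, and none passed, with limma adjusted p from 0.112 to 0.25.

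**Figure D5:**
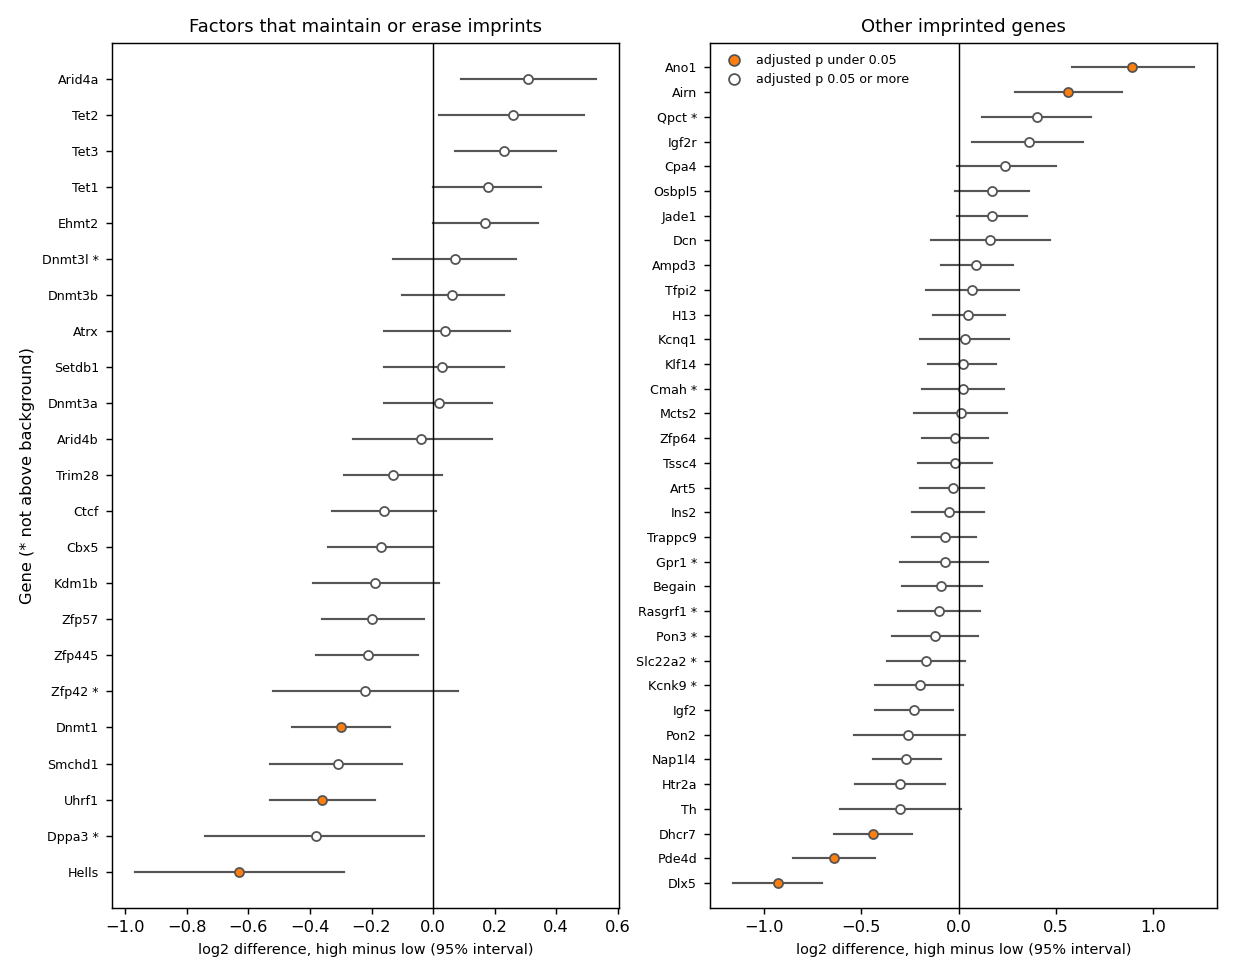
Log2 difference between the fractions (x axis) with 95% intervals from limma for 23 factors that keep or erase imprints (left) and 34 imprinted genes outside the 40 (right), one gene per line (y axis). Filled points passed the test: Dnmt1, Uhrf1 and Hells on the left, Ano1, Airn, Dhcr7, Pde4d and Dlx5 on the right.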

How the data were processed

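RNA of 3 Nkx2-1 high and 3 Nkx2-1 low samples was, per the labels' protocols, amplified (WT-Ovation Pico), biotinylated and hybridised to Affymetrix arrays. The authors deposited log2 expression values, 1 per transcript cluster. The submitters' processing notes name RMA, with no version, and the log2 scale was taken from it and from the range of the values. The build behind the arrays is not given in the sources used here. No scan date or detection call was at hand, and batches of arrays were not tested. The precision is limited by the number of arrays.

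Of 29011 rows, 21789 had 1 gene symbol in the platform annotation, 1621 several and 5601 none there. The highest-mean row per gene gave 19938 genes. These were fitted with lmFit and eBayes of limma 3.58.1 (R 4.3.3), with group as the only term and all 6 samples, Benjamini-Hochberg adjusted at 0.05. The procedure was also tested on simulated data, with independent normal noise for each gene and far fewer changed genes than were called here. There it recovered 50% of set log2 differences of 0.5 and 87% of those of 1.0, with 3 false calls. These rates need not hold in the real data. A positive log2 difference means a higher value in Nkx2-1 high. Genes with both group means at or under the background level of 4.30 were called not above background.

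The imprinted genes, the other lists and the cell type markers were chosen with earlier results of these data known. Of the 40 imprinted genes, those that changed, or that differed by 0.3 or more before rounding and were above background, are given in every sample; of the other lists, those that changed are named. The choice to give Cdkn1c, Sgce, Meg3, Mest, Blcap and Dnmt1 sample by sample, and of the pairs of neighbours, was made with their values in view. The alternatives were other array scalings, a background filter, other variance models and row rules, a replicate block, a threshold of 0.01, and leaving out samples. Plots were made in matplotlib 3.10.9 (Python 3.11.15).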

Additional observations from a re-analysis of the deposited data

How the results depend on the processing

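Asb4, Peg10, Grb10 and Sfmbt2 kept their direction and stayed past the threshold under all 15 alternative fits, with log2 differences from -1.67 to -1.36, from -0.88 to -0.74, from 0.54 to 0.65 and from 0.97 to 1.06, and at a threshold of 0.01. Dlk1 kept its direction in all 15 and its call in 8. Each of these genes had 1 row, so the row rules could not change its difference. Nor could the background filter, the trend and robust eBayes model or the replicate block, which could change only the p-value. The count of changed imprinted genes ran from 4 to 6 over the alternatives. Zim1 was called with array weights (adjusted p = 0.0388), with a replicate block (adjusted p = 0.0225), which gave 6 changed genes, and without both samples numbered 3 (adjusted p = 0.0169), an alternative chosen after seeing the data. The replicate numbers are not known to pair samples: deviations of same-numbered samples from their group means correlated across genes at 0.18, -0.0041 and 0.28, and not every sample correlated best with its own number. Over all genes the replicate block gave 1470 calls, beside 1196 without it.

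In the list of other imprinted genes 8 changed with array weights, 3 at a threshold of 0.01, and from 3 to 7 when 1 sample was left out. Among the imprint factors 0 changed at a threshold of 0.01, 0 without both samples numbered 3, and from 0 to 2 when 1 sample was left out (limma; with all samples and p left unadjusted, 7 lower and 5 higher ones were under 0.05). The median log2 difference of paternally expressed genes was -0.02 without both samples numbered 3 and ran from -0.01 to 0.06 when 1 sample was left out. That of maternally expressed genes was -0.10 without both samples numbered 3, and from -0.07 to 0.04 when 1 sample was left out. The cause of these shifts was not tested.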
